A study of Mus musculus with 8 samples.

Results

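The miR-34 and miR-449 family was followed through small RNA sequencing of mouse testis. Its members were chosen by name: every entry of the miRNA class called miR-34a, b or c, or miR-449a, b or c, with an arm in its name. The rule found 10 members among the 730 entries of that class, in a table of 20558 small RNAs, namely the 5p and the 3p arm of 5 precursors: mmu-miR-34a, mmu-miR-34b, mmu-miR-34c, mmu-miR-449a and mmu-miR-449c. The most abundant were mmu-miR-34c-5p, mmu-miR-34b-5p, mmu-miR-34a-5p and mmu-miR-449a-5p. All 10 passed the filter on low counts.

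The RNA came from the testes of 8 adult male C57Bl/6 mice with no transgene or mutation named. The 4 SD mice, M1N, M2N, TN1 and TN2, were kept on standard chow, and the 4 WD mice, M1W, M2W, M3W and M5W, received a Western-like diet rich in sugar and fat from weaning. The diet was begun at 3 weeks of age by the study's methods and at 4 weeks by the sample labels, whose text on a high-fat diet is repeated for the controls. What the letters M and TN in the names of SD mice stand for is not given. Whole testis was used, so germ cells and somatic cells were pooled within each mouse, and a lower level in such bulk RNA cannot be told apart from fewer cells of the type that makes the miRNA.

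A miRNA is cut from a hairpin precursor, and either side of the hairpin, the 5p or the 3p arm, can be kept. Bases 2 to 8 of the arm, the seed, pair with target messenger RNAs and lower their output. The miR-34 and miR-449 miRNAs share a seed and repress regulators of the cell cycle. Mir34a is a direct transcriptional target of p53. Mir34b and Mir34c are made from 1 primary transcript, and the Mir449 hairpins lie within the host gene Cdc20b. In the mouse testis miR-34b, miR-34c and miR-449 are known from meiotic and later male germ cells, and males that lack both the Mir34b and Mir34c pair and the Mir449 cluster are infertile.

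The sequences show what the members share and how the counting could tell them apart. Mature sequences were taken from the RefSeq table (build GRCm38.p6), which held 9 members but not miR-34c-5p, and each was located within its hairpin in the NCBIM37 assembly (mm9). Written 5′ to 3′ with the seed in capitals, the 5p arms read:
miR-34a-5p: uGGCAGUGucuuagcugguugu
miR-34b-5p: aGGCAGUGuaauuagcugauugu
miR-449a-5p: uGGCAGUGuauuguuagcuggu
miR-449c-5p: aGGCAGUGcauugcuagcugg

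The 3p arms, written the same way, read:
miR-34a-3p: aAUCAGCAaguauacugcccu
miR-34b-3p: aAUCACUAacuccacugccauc
miR-34c-3p: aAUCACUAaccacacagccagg
miR-449a-3p: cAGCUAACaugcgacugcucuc
miR-449c-3p: cAGUUGCUagcugcacuacccu

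The 4 printed 5p arms carried the same seed, GGCAGUG, and none of the other mature mouse miRNAs among the 1679 in that table did. The 3p arms were more varied: miR-34b-3p and miR-34c-3p shared the seed AUCACUA, again with no other miRNA of the table, whereas each of the other 3p arms had a seed of its own. Set side by side from their 5′ ends, miR-449a-5p and miR-449c-5p differed at 3 of 21 bases, miR-34b-3p and miR-34c-3p at 5 of 22, and miR-34a-5p and miR-449a-5p at 7 of 22. Every printed pair of the same arm thus differed by more than the 2 mismatches that the alignment allowed. miR-34c-5p, which is not printed, could not be compared. Whether the alignment could tell its reads from those of miR-34b-5p, made from the same primary transcript, was therefore not checked. How a read with several matches was counted is not given in the sources used here.

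The hairpins lie at 3 places. Mir34a is at chr4:149442563-149442664 on the plus strand, outside the annotated genes, with Gm13067 the nearest at 11478 bases. Mir34b, at chr9:50911667-50911750, and Mir34c, at chr9:50911139-50911215, lie close together on the minus strand between genes, and the nearest annotated gene is 4833427G06Rik. Mir449c, at chr13:113826191-113826299, and Mir449a, at chr13:113827742-113827832, lie on the plus strand inside Cdc20b, on the same strand and outside its exons. The hairpins of Mir34b and Mir449a, with both arms in capitals, show the pair of arms whose balance is compared between mice further on:
Mir34b: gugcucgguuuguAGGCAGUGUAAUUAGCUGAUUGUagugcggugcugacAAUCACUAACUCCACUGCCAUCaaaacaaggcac
Mir449a: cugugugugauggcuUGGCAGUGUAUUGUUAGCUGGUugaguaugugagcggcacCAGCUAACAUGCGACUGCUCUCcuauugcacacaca

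The libraries of SD mice held 2064562 to 3253798 counts and those of WD mice 2159625 to 3092399. Levels are given as CPM, the count relative to the library's total, scaled with TMM factors, errors as standard deviations over 4 mice (s.d.), and 3 counts, taken as the floor of detection, correspond to 0.933 to 1.39 CPM. Among the 8 mice, M1N and M2N stood apart: on the first principal component, which held 48.2% of the variance, their scores were -69.6 and -34.1, whereas those of the other 6 ran from 4.13 to 33.2. Small RNAs of the testis were present in every mouse. The 35 listed miRNAs of the X-linked cluster known from spermatogenic cells summed to between 7813 and 11310 CPM, and the 2 arms of miR-202, a miRNA of the gonad, to between 3609 and 7021 CPM. Liver's defining miR-122-5p was at 0 in 6 mice but at 15.4 CPM in TN1 and 13.0 CPM in TN2.

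The family made up a large part of testis miRNA. It took 19.2% ± 1.37 (s.d., n = 4) of the counts of the miRNA class in SD mice and 18.1% ± 2.71 (n = 4) in WD mice. By mouse the share was 19.2% in M1N, 17.7% in M2N, 21.0% in TN1 and 18.8% in TN2 among SD mice. It was 17.9% in M1W, 14.8% in M2W, 21.4% in M3W and 18.3% in M5W among WD mice. The lowest and the highest share both belonged to WD mice, with a 95% Wilson interval of 14.7 to 14.9% in M2W and of 21.3 to 21.6% in M3W. Such intervals, like the floor, cover counting error only. The pair Mir34b and Mir34c supplied 73.1% ± 3.40 of the family's counts in SD mice and 75.9% ± 2.86 in WD mice. Mir34a supplied 19.1% ± 1.33 and 18.3% ± 2.72. The Mir449 cluster supplied 7.81% ± 2.11 in SD mice and 5.78% ± 0.454 in WD mice. M1N and M2N departed from the rest in 2 of these fractions: Mir449 supplied 10.3% in M1N and 8.76% in M2N, against 5.4 to 6.44% in the other 6, and Mir34b with Mir34c 69.3% and 71.1%, against 72.5 to 79.4%.

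**Figure D1:**
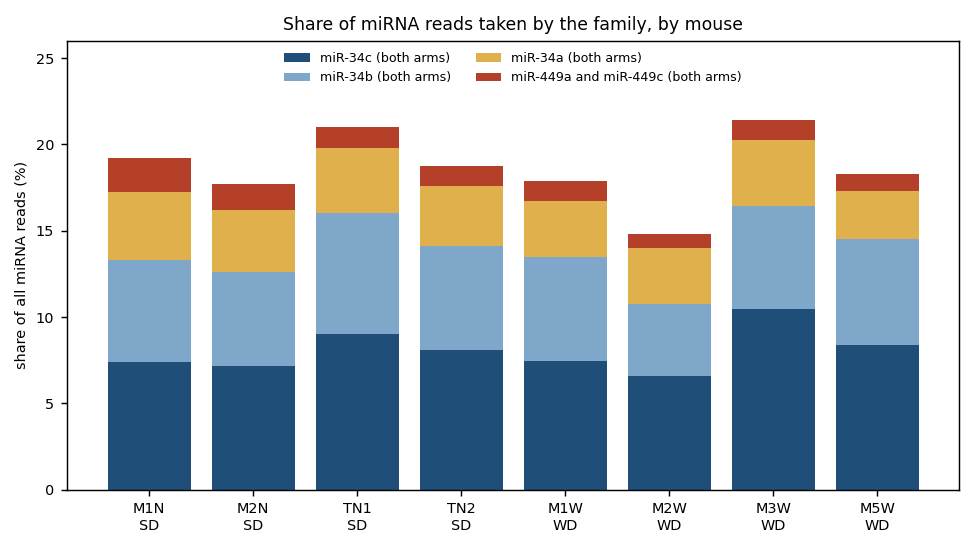
Share of all miRNA reads, in percent, taken by the family in each of the 8 testis RNAs, stacked by precursor (miR-34c, miR-34b, miR-34a, and miR-449a with miR-449c; both arms). The total lies between 14.8 and 21.4% with both extremes among WD mice, and the uppermost segment, miR-449, is tallest in M1N and M2N.

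The abundant 5p arms came first. miR-34c-5p was the most abundant mature miRNA in each of the 8 mice. Its level was 8433 CPM in M1N, 7576 in M2N, 8348 in TN1 and 6902 in TN2. In WD mice it was 6569 CPM in M1W, 8115 in M2W, 10588 in M3W and 7739 in M5W. The WD mice thus enclosed the whole range of the SD mice, with the lowest and the highest level both on the Western-like diet. The means were 7814 ± 720 CPM in SD mice and 8252 ± 1690 CPM in WD mice (s.d., n = 4 each), a log2 fold change of 0.08 (SE 0.18) with an edgeR adjusted p of 0.849. With 22014 counts per mouse on average, the counting error was 0.674% of the level, far below the spread of 9.22% among SD mice and 20.5% among WD mice.

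miR-34b-5p, made from the same primary transcript, ranked as the third mature miRNA after miR-19b-3p. It was at 5294 CPM in M1N, 4354 in M2N, 5677 in TN1 and 4347 in TN2, and at 4507 in M1W, 4240 in M2W, 5224 in M3W and 4864 in M5W. The groups overlapped over most of their range. The means were 4918 ± 674 CPM in SD mice and 4709 ± 428 CPM in WD mice, a log2 fold change of -0.06 (SE 0.17, edgeR adjusted p = 0.870). It was lower than miR-34c-5p in 8 of 8 mice, by 1.66-fold on average.

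miR-34a-5p, from a p53-responsive gene on chromosome 4, ranked sixth. Its level in SD mice was 4660 CPM in M1N, 3917 in M2N, 3525 in TN1 and 3036 in TN2. In WD mice it was 2984 CPM in M1W, 4116 in M2W, 3927 in M3W and 2613 in M5W. The groups overlapped, with the highest level in an SD mouse and the lowest in a WD mouse. The means of 3784 ± 686 and 3410 ± 726 CPM corresponded to a log2 fold change of -0.15 (SE 0.20, edgeR adjusted p = 0.716). It was below miR-34b-5p in 8 of 8 mice, although their ranges over all mice overlapped.

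miR-449a-5p, the main product of the Mir449 cluster, ranked nineteenth. It was at 2299 CPM in M1N, 1640 in M2N, 1082 in TN1 and 940 in TN2, and at 943 in M1W, 972 in M2W, 1125 in M3W and 835 in M5W. M1N and M2N were above all other mice, whereas TN1 and TN2 fell within the range of the WD mice. The means were 1490 ± 618 CPM in SD mice and 969 ± 120 CPM in WD mice, so that the coefficient of variation was 41.5% on standard chow and 12.4% on the Western-like diet. The log2 fold change was -0.62 (SE 0.24), with an unadjusted p of 0.0211 and an adjusted p of 0.318 by edgeR. Its level was below that of miR-34a-5p in 8 of 8 mice, by 3.05-fold on average.

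miR-449c-5p, from the neighbouring hairpin, was scarcer and went the other way. It was at 51.8 CPM in M1N, 56.4 in M2N, 86.0 in TN1 and 68.6 in TN2, and at 91.1 in M1W, 75.9 in M2W, 96.8 in M3W and 72.8 in M5W. M1N and M2N were the lowest of the 8 mice, and TN1 and TN2 again stood near or within the range of the WD mice. The means were 65.7 ± 15.3 and 84.1 ± 11.6 CPM, a log2 fold change of 0.36 (SE 0.19, edgeR adjusted p = 0.374).

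The 3p arms, the less abundant products of these hairpins, came next. miR-34b-3p was at 1746 CPM in M1N, 1660 in M2N, 1039 in TN1 and 1006 in TN2, and at 1012 in M1W, 1087 in M2W, 965 in M3W and 922 in M5W. M1N and M2N were again above all others, with the 6 remaining mice close together. The means were 1363 ± 395 and 996 ± 70.8 CPM, a log2 fold change of -0.45 (SE 0.20) with an unadjusted p of 0.0377 and an adjusted p of 0.331 by edgeR. Its level could not be ranked against that of miR-449a-5p, which was the higher in 3 of 8 mice.

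miR-34c-3p was at 422 CPM in M1N, 334 in M2N, 245 in TN1 and 228 in TN2, and at 239 in M1W, 244 in M2W, 213 in M3W and 171 in M5W. It had the same pattern as miR-34b-3p, with M1N and M2N on top and TN1 and TN2 level with the higher WD mice. The means were 307 ± 89.4 and 217 ± 33.5 CPM, a log2 fold change of -0.50 (SE 0.20) with an unadjusted p of 0.0261 and an adjusted p of 0.323 by edgeR. It was lower than miR-34b-3p in 8 of 8 mice, by 4.53-fold on average.

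The remaining 3p arms were near the lower end of what the depth could measure. miR-34a-3p had means of 15.3 ± 5.45 CPM in SD mice and 13.1 ± 3.83 CPM in WD mice, miR-449c-3p of 12.3 ± 3.74 and 15.4 ± 1.52 CPM, and miR-449a-3p of 7.71 ± 3.0 and 7.91 ± 1.08 CPM. Their log2 fold changes were -0.22 (SE 0.28), 0.33 (SE 0.24) and -0.01 (SE 0.29), with edgeR adjusted p of 0.713, 0.509 and 0.993. With 40.6, 38.0 and 21.8 counts per mouse on average, the counting error alone was 15.7%, 16.2% and 21.4% of the level. miR-449c-3p followed miR-449c-5p in being lowest in M1N, at 8.23 CPM, and M2N, at 10.2 CPM, whereas the other 6 mice had 14.0 to 17.1 CPM. Neither miR-34a-3p and miR-449c-3p nor miR-449c-3p and miR-449a-3p could be ordered in all mice, the former of each pair being higher in 3 and in 7 of 8 mice.

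**Figure D2:**
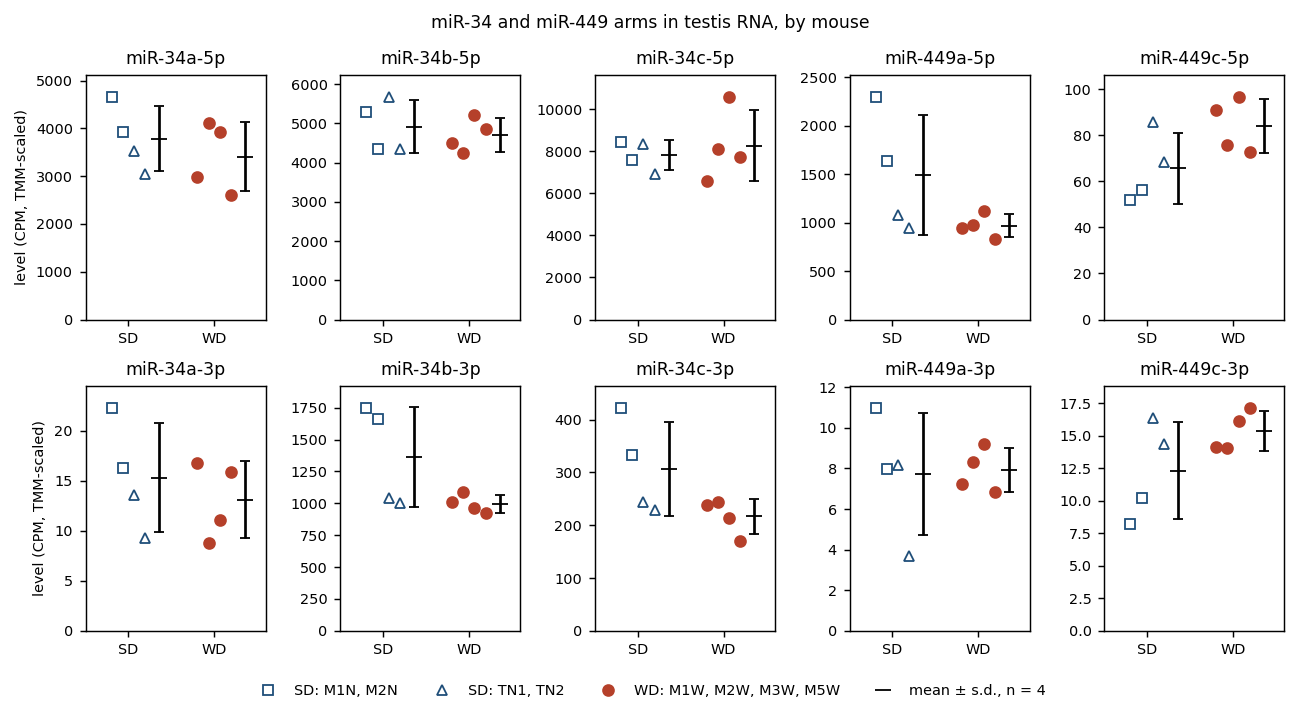
Level of each of the 10 members in TMM-scaled CPM (vertical axis from 0, its own scale in each panel) in the 4 SD mice (open squares M1N and M2N, open triangles TN1 and TN2) and the 4 WD mice (filled circles), with mean ± s.d. SD and WD mice overlap in all 10 panels, and for miR-449a-5p, miR-34b-3p and miR-34c-3p the squares lie above every other mouse, while for miR-449c-5p and miR-449c-3p they lie below.

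A few reads of the same loci fell outside the rule. Entries for the precursors mir-449b, mir-449a, mir-34c, mir-449c and mir-34a held 81, 66, 65, 54 and 13 counts over all 8 mice. The entry miR-449b, listed without an arm, held 44 counts in total, 2 to 11 per mouse, and did not pass the filter. These amounts were small beside miR-449a-5p, which had 3441 counts per mouse on average.

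The comparison of the diets asked whether the Western-like diet changed the level of any member in the testis. No member was called in the test fitted to all small RNAs. edgeR's quasi-likelihood test called 0 of the 10 members at an adjusted p under 0.05, and 0 of the 16955 small RNAs tested (0%). DESeq2 and limma-voom likewise called 0 members and 0 small RNAs. At an unadjusted p of 0.05 or less, edgeR had 2474 of the 16955 small RNAs (14.6%), of which 1328 were lower in WD mice (7.83%), DESeq2 had 991 higher and 1260 lower of its 20558, and limma-voom 1417 higher and 1089 lower of 16955. Of the 10 members, miR-449a-5p, miR-34b-3p and miR-34c-3p were lower in WD mice at that unadjusted level by edgeR and DESeq2, and miR-449a-5p and miR-34c-3p by limma-voom. By edgeR this count of 3 became 0 without M1N, without M2N or without the WD mouse M5W, and 1 without M1W (miR-34c-3p) or without M3W (miR-449a-5p), and it was 3 when TN1, TN2 or M2W was left out. Without TN1, miR-449c-5p was in addition higher at that level. The share of all small RNAs at that level moved as well, to 8.16% without M1N, 7.95% without M2N, 7.49% without M5W, 8.93% without M1W and 11.2% without M3W, and to 15.1 to 22.8% without each of the others. Without M1N the log2 fold changes were -0.33 for miR-449a-5p, -0.31 for miR-34b-3p and -0.31 for miR-34c-3p. The log2 fold change was negative for 7 of the 10 members, with a median of -0.11, against a median of -0.01 over all small RNAs tested and 0.03 over the miRNA class. SD and WD mice overlapped for each of the 10 members, while they did not overlap for 26 of 366 mature miRNAs (7.10%). A p above the threshold does not show that levels were equal, and the standard errors of 0.17 to 0.29 give the resolution on the log2 scale.

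M1N and M2N had the extreme levels of several members. Both of these mice lay outside the range of the other 6 for 5 of the 10 members, above it for miR-449a-5p, miR-34b-3p and miR-34c-3p and below it for miR-449c-5p and miR-449c-3p. The same held for 112 of 366 mature miRNAs (30.6%). On average miR-449a-5p was 2.0-fold higher in M1N and M2N than in the other 6 mice, miR-34b-3p 1.7-fold and miR-34c-3p 1.7-fold. By contrast miR-34c-5p and miR-34b-5p, the products most often counted, differed little, with ratios of 0.995 and 1.00.

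Set against M1N and M2N only, the WD mice differed in 4 members at an edgeR adjusted p under 0.05. miR-449a-5p was lower by a log2 fold change of -1.02 (SE 0.19, adjusted p = 0.00171), miR-34b-3p by -0.77 (SE 0.18, adjusted p = 0.00533) and miR-34c-3p by -0.80 (SE 0.19, adjusted p = 0.00628), and miR-449c-5p was higher by 0.64 (SE 0.20, adjusted p = 0.0280). With TMM factors from the miRNA class alone, miR-449c-5p lost its call there (0.76, adjusted p = 0.0586 by edgeR). In that comparison 3642 of 17495 small RNAs (20.8%) and 84 of 453 entries of the miRNA class (18.5%) were called. Against TN1 and TN2 alone, the same 4 WD mice gave log2 fold changes of -0.06, -0.04, -0.13 and 0.11 for these members. No member was then called by edgeR or reached an unadjusted p of 0.05, and 23 of 17168 small RNAs were called (0.134%). The comparisons share their 4 WD mice, and the values are set side by side for that reason only.

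The SD mice also differed among themselves. In 1 fit to all 8 mice, with M1N and M2N, TN1 and TN2, and the WD mice as separate levels, miR-449a-5p fell by 0.96 on the log2 scale from the former pair to the latter (SE 0.21, edgeR adjusted p = 0.0141), miR-34b-3p by 0.74 (SE 0.19, adjusted p = 0.0246) and miR-34c-3p by 0.67 (SE 0.21, adjusted p = 0.0454). These 3 of 10 members were called, beside 1556 of 16955 small RNAs (9.18%) and 51 of 418 of the miRNA class (12.2%). miR-449c-5p was 0.52 higher on the log2 scale in TN1 and TN2 (SE 0.22, adjusted p = 0.124) and miR-449c-3p 0.74 higher (SE 0.30, adjusted p = 0.116), and neither was called. The miRNA class as a whole was lower in TN1 and TN2, with a median of -0.30 on the log2 scale, and when TMM factors were taken from the miRNA class alone the values became -0.67, -0.45 and -0.38 for the 3 members called, with adjusted p of 0.0651, 0.133 and 0.280. With column totals or upper-quartile factors miR-34c-3p alone lost its call (adjusted p = 0.0978 and 0.0595 by edgeR). Without M1N none of these calls held, miR-449a-5p being at -0.69 with an adjusted p of 0.136, and without TN1 or without TN2 no member was called either.

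Markers of other cell types were compared over the same split of the mice. Summed over the 5 arms listed for leukocytes, the level was 402 to 510 CPM in M1N and M2N and 203 to 443 CPM in the other 6 mice, so that the ranges overlapped. Within that list the means of M1N and M2N and of the other 6 were 251 and 118 CPM for miR-223-3p and 115 and 49.99 CPM for miR-150-5p, but 10.1 and 18.6 CPM for miR-142-3p, which went the other way. Over 6 arms of epithelial miRNAs it was 30.8 to 46.2 CPM and 55.1 to 111 CPM, and over 3 arms of red blood cell miRNAs 40.2 to 71.6 CPM and 76.5 to 151 CPM. The 2 arms of miR-122 were detected in TN1 and TN2 alone. The summed endothelial miR-126 arms were at 2058 to 2099 CPM in M1N and M2N and 1248 to 2438 CPM in the other 6, with miR-126-5p at 560 and 387 CPM on average. Smooth muscle miRNAs summed to 4166 to 4343 and 3075 to 5961 CPM. Among them miR-145-5p averaged 4004 and 3428 CPM, but miR-143-3p, which went the other way, 231 and 407 CPM. Striated muscle miRNAs summed to 39.4 to 43.0 and 28.1 to 53.1 CPM. Both arms of the gonadal miR-202 had M1N and M2N outside the other mice, miR-202-5p lower (3654 and 4598 CPM on average) and miR-202-3p higher (191 and 110 CPM). The X-linked cluster of spermatogenic cells summed to 10751 to 11074 CPM in M1N and M2N, within the 7813 to 11310 CPM of the other mice. Their part in the difference of the family members was not tested.

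**Figure D3:**
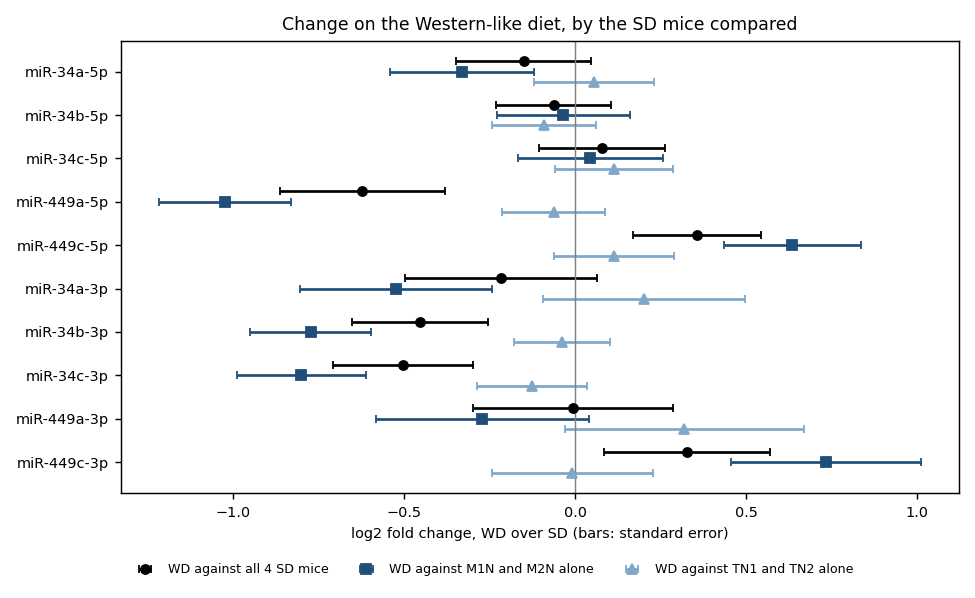
Log2 fold change of each member on the Western-like diet (horizontal axis, WD over SD; bars are standard errors) against all 4 SD mice, against M1N and M2N alone, and against TN1 and TN2 alone. For miR-449a-5p, miR-34b-3p and miR-34c-3p the estimate moves from -1.02, -0.77 and -0.80 against M1N and M2N to -0.06, -0.04 and -0.13 against TN1 and TN2, whereas for miR-34b-5p and miR-34c-5p the 3 estimates nearly coincide.

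The balance of the 2 arms of a hairpin is a ratio within a mouse and does not depend on library size. In every mouse the 5p arm was the more abundant product of each of the 5 precursors. The excess was smallest for miR-34b, whose log2 ratio of 5p to 3p counts was 1.89 ± 0.48 in SD mice and 2.24 ± 0.22 in WD mice, and for miR-449c, at 2.42 ± 0.16 and 2.43 ± 0.26. For miR-34c it was 4.71 ± 0.36 and 5.24 ± 0.40, for miR-449a 7.57 ± 0.38 and 6.91 ± 0.068, and for miR-34a 7.98 ± 0.26 and 8.02 ± 0.73. The same seed-sharing 5p arms were thus accompanied by very different amounts of 3p arm.

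The 3p arm of miR-34b took more of its hairpin's counts in 2 SD mice. It was 24.8% in M1N and 27.6% in M2N, against 15.5% in TN1 and 18.8% in TN2, and 18.3% in M1W, 20.4% in M2W, 15.6% in M3W and 15.9% in M5W. For miR-34c the 3p arm took 4.76% in M1N and 4.22% in M2N and between 1.98 and 3.52% in the other 6 mice. Both ratios thus separated M1N and M2N from all other mice, as did 33 of the 101 precursors with enough counts in both arms (32.7%), and of those 25 had the lower 5p to 3p ratio in M1N and M2N. Between the diets, the difference in the log2 ratio was 0.35 for miR-34b (exact permutation test, two-sided, p = 0.286, adjusted p over 101 precursors 0.641) and 0.53 for miR-34c (exact permutation test, p = 0.143, adjusted p = 0.577).

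The arms of miR-449a behaved otherwise. The log2 ratio of miR-449a-5p to miR-449a-3p was 7.69 in M1N, 7.66 in M2N, 7.02 in TN1 and 7.90 in TN2, and 6.99 in M1W, 6.83 in M2W, 6.90 in M3W and 6.90 in M5W. All 4 WD mice lay below all 4 SD mice, although TN1 and M1W were almost level. The difference of -0.66 had an exact permutation p of 0.0286, two-sided, the smallest that 4 mice against 4 allow, and an adjusted p of 0.481 over the 101 precursors. Of these 101 precursors, 4 reached an unadjusted p of 0.05 or less (3.96%) and 0 an adjusted p under 0.05. The ratio rested on 8 to 32 counts of miR-449a-3p per mouse. For miR-34a and miR-449c the differences were 0.04 and 0.01, each with an exact permutation p of 0.943.

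**Figure D4:**
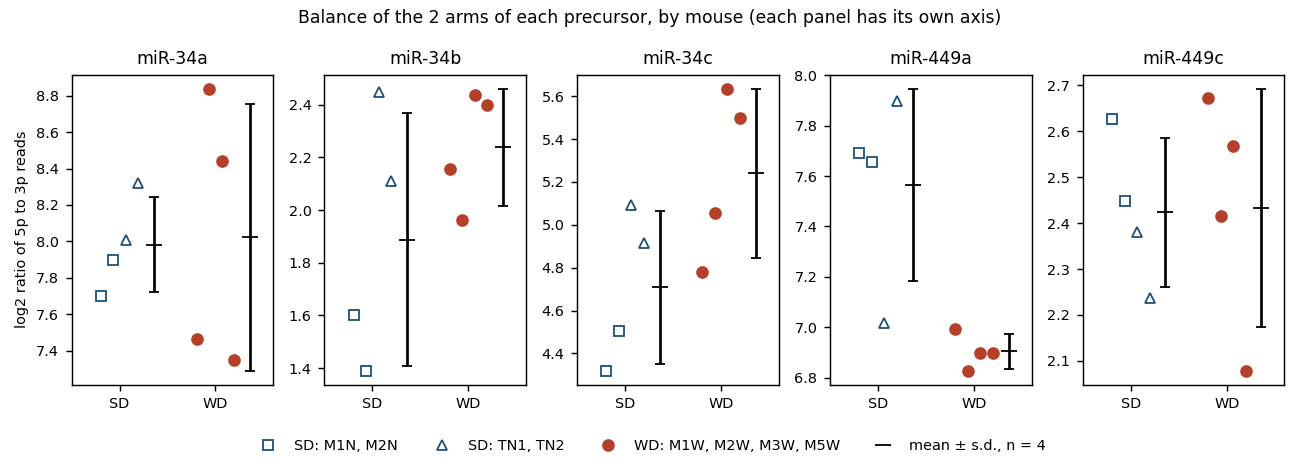
Log2 ratio of 5p to 3p counts of the 5 precursors in each mouse (vertical axis, its own range in each panel; symbols as for the levels), with mean ± s.d. of 4 mice. M1N and M2N have the lowest ratios for miR-34b (1.6 and 1.39) and miR-34c, and for miR-449a the WD mice lie between 6.83 and 6.99, below the 4 SD mice.

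Members of a locus were also compared with each other. miR-34b-5p was present at 0.628 of the count of miR-34c-5p in M1N, 0.575 in M2N, 0.680 in TN1 and 0.630 in TN2. In WD mice the ratio was 0.686 in M1W, 0.523 in M2W, 0.493 in M3W and 0.629 in M5W. The difference between the diets in the log2 ratio, -0.12, was smaller than the s.d. of 0.22 within the WD group (two-sided exact permutation test, p = 0.371). The ratio of miR-34b-3p to miR-34c-3p lay between 4.14 and 5.39 in all 8 mice (exact permutation test of the diets, two-sided, p = 0.514). In the Mir449 cluster, by contrast, the ratio of miR-449a-5p to miR-449c-5p was 44.4 in M1N and 29.1 in M2N, but 12.6 in TN1, 13.7 in TN2 and 10.4 to 12.8 in the WD mice. Between the diets this last ratio differed by -0.91 on the log2 scale (two-sided exact permutation p = 0.0571), but it was singled out after its values were seen, and nothing is rested on that p. These 2 arms differ at 3 of the 21 bases printed above, yet they diverged in M1N and M2N.

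**Figure D5:**
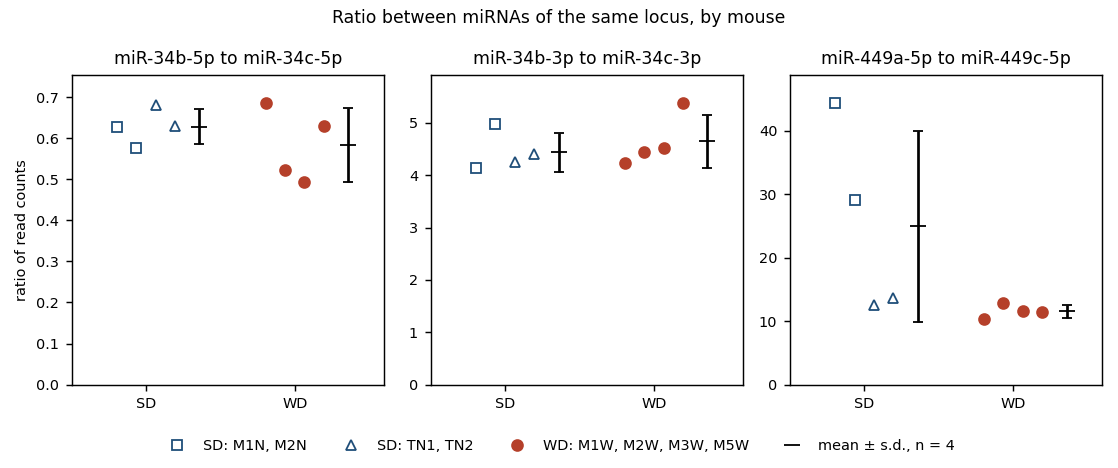
Ratio of read counts between miRNAs of the same locus in each mouse (vertical axis from 0, its own scale in each panel; symbols as for the levels), with mean ± s.d. of 4 mice. The ratios within the Mir34b and Mir34c pair stay between 0.493 and 0.686 for the 5p arms and between 4.14 and 5.39 for the 3p arms, whereas that of miR-449a-5p to miR-449c-5p is 44.4 and 29.1 in M1N and M2N and at most 13.7 in the other 6 mice.

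Members were also compared by how their levels ran across the mice. Likeness was measured as the standard deviation, over the 8 mice, of the log2 ratio of 2 miRNAs. Only a value well below the s.d. of the reference miRNA itself means that the levels kept in step. That s.d. was 0.210 on the log2 scale for miR-34c-5p and 0.494 for miR-449a-5p. A miRNA of unchanging level would have just that value. Within the family, the value to miR-34c-5p was 0.172 for miR-34b-5p and 0.243 for miR-34a-5p, the latter above that of an unchanging miRNA. The value to miR-449a-5p was 0.184 for miR-34c-3p, 0.198 for miR-34b-3p and 0.328 for miR-34a-5p, and 0.758 for miR-449c-5p, which shares its seed and host gene. Of the 356 mature miRNAs outside the family, the 5 closest to miR-34c-5p were miR-669f-3p (0.170), miR-298-5p (0.188), miR-15a-5p (0.190), miR-324-5p (0.205) and miR-16-5p (0.207), against a median of 0.477. These 5 values lie near the 0.210 of an unchanging miRNA, so they show little common movement. The 5 closest to miR-449a-5p were miR-191-5p (0.181), miR-181a-5p (0.200), miR-192-5p (0.201), miR-547-3p (0.220) and miR-484 (0.232), against a median of 0.604. Each of these 5 had a higher mean in M1N and M2N than in the other 6 mice, for example 5684 against 2997 CPM for miR-191-5p. This follows from how they were picked, because miR-449a-5p itself was higher in M1N and M2N. All values share the same 8 libraries and are descriptions.

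Related groups of miRNAs gave a setting for the family, and none held a miRNA called by edgeR between the WD mice and all 4 SD mice. Against M1N and M2N only, 7 of 35 tested miRNAs of the X-linked list were called higher and 4 lower. In the miR-17-92 list these counts were 5 and 2, of 18 tested. The p53-responsive list and the miR-290 to miR-295 cluster had 1 miRNA each called lower, of 9 and 4 tested. Over the same comparison 18.5% of the miRNA class and 20.8% of all small RNAs were called. Against TN1 and TN2 only, the 4 miRNAs of the miR-290 to miR-295 cluster that were tested against all 4 SD mice were called lower. The X-linked, miR-17-92 and p53-responsive lists then held no call. The filter kept 10 of the cluster there, the rest only through their level in TN1 and TN2, so their direction is not counted. In that comparison 23 of 17168 small RNAs were called (0.134%). Of 9 tested p53-responsive miRNAs outside the family, none reached an unadjusted p of 0.05, and their median log2 fold change was 0.21, against -0.15 for miR-34a-5p. The most abundant of them, miR-16-5p, which restrains the cell cycle as the miR-34 miRNAs do, was at 2790 ± 244 CPM in SD mice and 3279 ± 324 CPM in WD mice. In the X-linked spermatogenic cluster, 7 of 34 tested miRNAs were higher and 2 lower at an unadjusted p not above 0.05, and the median was 0.19. Over the whole miRNA class, 40 of the 418 tested were higher and 29 lower at that level (16.5%). The most abundant miRNA of the X-linked list, miR-878-3p, was at 2224 ± 877 and 1723 ± 572 CPM, with a mean of 2923 CPM in M1N and M2N and of 1657 CPM in the other 6 mice.

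Of 18 tested miRNAs of the miR-17-92 cluster and its paralogs, which promote proliferation, 4 were higher and 2 lower at that level, against the 40 and 29 of 418 in the class, with a median of -0.10. Among them miR-19b-3p, the miRNA next below miR-34c-5p in abundance, was at 5267 ± 593 CPM in SD mice and 6806 ± 654 CPM in WD mice, a log2 fold change of 0.37 (SE 0.17, edgeR adjusted p = 0.337). The 4 tested miRNAs of the miR-290 to miR-295 cluster, known from pluripotent cells, were all lower at an unadjusted p not above 0.05, their median being -3.26, and here TN1 and TN2 were the mice that stood out. The mean of miR-290-5p was 7.44 CPM in M1N and M2N, 8.37 ± 7.48 CPM in WD mice and 114 ± 123 CPM over all 4 SD mice.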

How the data were processed

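Small RNA of 8 testes (Trizol extraction) was sequenced on a SOLiD 5500XL. The authors cut each read at its adaptor (otherwise at base 31), mapped to mm9 by Bowtie with 2 mismatches (version not given in the sources used here), annotated them with miRBase release 18, and deposited raw counts per small RNA and mouse, with no row under 9 counts in total. Reads are not deduplicated, and p-values measure the spread between mice.

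The deposited counts entered edgeR 4.0.16 under R 4.3.3: column totals as library size, TMM, filterByExpr (minimum count 10, minimum total 15), quasi-likelihood test, two-sided, Benjamini-Hochberg adjustment over all 16955 small RNAs kept. Standard errors derive from the F statistic. DESeq2 1.42.0, limma 3.58.1, other scalings and filters, each pair of SD mice and leaving out mice served as alternatives. Arm ratios, with 0.5 added to each count, were compared by exact permutation over all 70 assignments (SciPy 1.17.1) for precursors with a mean of at least 10 counts per arm. The fitting procedure was tested on simulated data.

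Named were all members and their precursors, the 5 miRNAs most like miR-34c-5p or miR-449a-5p, neighbours in abundance, and from each list the most abundant and the most changed entries, of which some are given. Members and lists were chosen with earlier results of these data known. Positions come from NCBIM37 with GENCODE M1. piRNAs and other classes entered only the fit.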

Additional observations from a re-analysis of the deposited data

How the results depend on the processing

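The count of 0 members called between the diets held under DESeq2, limma-voom, upper-quartile factors, column totals, TMM on the miRNA class alone, both filters, adjustment within the miRNA class, TN1 and TN2 alone, and leaving out any mouse (range 0 to 0). It was 4 against M1N and M2N alone, and there 5 with column totals, 4 with upper-quartile factors and 3, without miR-449c-5p, with TMM within the miRNA class, settings chosen after seeing the data. M1N with M1W and M2N with M2W share a number but are different animals. Their deviations from the group means correlated at -0.08 and 0.24. For mice of unlike number, M1N with M2W and M2N with M1W, the values were 0.23 and -0.07. Whether mice of like number share more than the number cannot be told from these values. With that number as a replicate block in these 4 mice, 0 members were called. Without the block, a fit added later, 1 was, miR-449a-5p, at -1.04 (adjusted p = 0.0278 by edgeR, against -1.02 and 0.0607 with the block). The uncalled miR-34c-5p, at 0.08 over all 8 mice, was -0.13 with the block and -0.12 without.

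The 3 members called between the SD pairs became 2 with column totals and with upper-quartile factors, 0 with TMM within the miRNA class, 1 with the SD mice alone, and 0 to 3 when 1 mouse was left out. The family share was 1.93% in SD and 1.90% in WD mice when taken of all counts.

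The arm ratio of miR-449a stayed between -0.84 and -0.55 without any 1 mouse, with an exact permutation p of 0.0571, the smallest that 3 mice against 4 allow. The values that reversed were uncalled, the largest being the arm ratio of miR-34b (0.35), miR-449c-3p (0.33) and miR-34a-3p (-0.22). miR-449a-3p between the diets was 0.00036 (DESeq2), 0.052 (limma-voom), 0.065 (column totals), 0.014 (upper quartile), 0.030 (TMM within miRNAs), 0.0027 (no filter), 0.32 (TN1 and TN2 alone). Against TN1 and TN2 alone, miR-34a-5p was 0.056, miR-34a-3p 0.20, miR-449c-3p -0.0087, and the arm ratios of miR-34a -0.14 and of miR-34b -0.042. Against M1N and M2N alone, the arm ratio of miR-449c was -0.10, and miR-34b-5p was 0.10 with column totals, 0.0067 with upper-quartile factors and 0.10 with TMM within miRNAs. Between the SD pairs, miR-34c-5p was 0.084 with column totals and 0.22 with TMM within miRNAs. Leaving out 1 mouse gave, between the diets, -0.064 to 0.17 for miR-34c-5p, -0.12 to 0.013 for miR-34b-5p, -0.38 to 0.013 for miR-34a-3p and -0.20 to 0.19 for miR-449a-3p, arm ratios of -0.23 to 0.27 for miR-34a and -0.070 to 0.13 for miR-449c, and between the SD pairs -0.21 to 0.062 for miR-34c-5p and -0.15 to 0.24 for miR-34b-5p. The cause was not tested.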
